A study of Mus musculus with 15 samples.

Results

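Of the 990 autosomal ACF1 segments deposited for susceptible mice, 661 (66.8%) had no ACF1 segment of control or resilient mice within 1000 bp, and these susceptible-only segments are described here. They were chosen by the deposited segment positions alone, by measuring for each susceptible segment on the 19 autosomes the number of bases to the nearest segment of either other list, and they stand among 2208 autosomal segments in the 3 lists (2598 with all chromosomes). The tissue was the nucleus accumbens of C57BL/6 mice, taken 48 hours after the last session of chronic social defeat, in which an aggressive CD1 mouse attacked the test mouse for 10 min on each of 10 days. By a social interaction test, defeated mice were assigned to a susceptible group, which avoids a CD1 mouse, and a resilient group, which does not, and controls in this paradigm are not defeated. Punches of 10 mice were pooled per replicate, ACF1 chromatin was sheared and immunoprecipitated, and histone H3 chromatin was digested with micrococcal nuclease first. The labels give neither the age and sex of the animals nor how the controls of this study were handled. The same procedures gave 269 resilient-only segments, 321 control-only segments and 228 susceptible segments that lay within 1000 bp of a segment in both other lists, called segments of all 3 lists. The lengths of the control and resilient lists are not given apart here, so 269 and 321 stand without a share of their list. The remaining susceptible segments lay within 1000 bp of a resilient but no control segment (54) or of a control but no resilient segment (47).

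ACF1, the product of Baz1a, is the large accessory subunit of the ACF complex, in which the ISWI-type ATPase SNF2H (Smarca5) slides nucleosomes along DNA and sets them at regular spacing. Remodelling of this kind is known for packing chromatin and limiting access to promoters. The nucleus accumbens is a forebrain region of reward and motivation, built mostly of medium spiny neurons, and social defeat is a standard model of stress-induced avoidance.

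Each list came as 1 result per group, in which 2 states, E1 and E2, tile the genome at a resolution of 200 bp, with no score, read count or depth. The files do not say which state stands for bound ACF1, and the minority state E2 was taken as the segment. There is thus no spread between replicates and no p-value for any value given here, and absence from a list means only that no segment was listed there. The tissue was bulk, so a change in cell makeup and a change of ACF1 per cell cannot be told apart. Expression was not analysed here, and the tissue label was not checked against marker genes. The choice of the segments used only the 3 ACF1 lists, so their number, width and distance to other lists are descriptions, while genes and H3 positions were not used by that choice.

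Sequences are shown for 4 genes whose start lay in or next to a susceptible-only segment, because they show the kinds of locus found there: a promoter rich in CG, and promoters with a near copy elsewhere in the genome. They are RefSeq promoters of GRCm38.p6, 250 bases before to 50 bases after the start, read 5′ to 3′ on the strand of the gene. The segments are on mm9, and gene starts of the 2 builds were paired by symbol, not by position. For the 4 genes shown the strand was the same in both builds. In the Prdm16 promoter (chr4:154636824-154637123, minus strand) capitals mark each CG. Prdm16 encodes a transcription factor and histone methyltransferase.
Prdm16: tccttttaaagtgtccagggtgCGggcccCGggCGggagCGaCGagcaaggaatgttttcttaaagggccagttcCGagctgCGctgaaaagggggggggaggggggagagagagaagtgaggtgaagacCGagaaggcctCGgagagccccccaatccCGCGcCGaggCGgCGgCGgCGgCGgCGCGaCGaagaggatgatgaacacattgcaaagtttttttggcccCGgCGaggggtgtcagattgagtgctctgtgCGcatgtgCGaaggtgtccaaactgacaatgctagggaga
The Defa36 promoter (chr8:21427178-21427477, plus strand) is printed all in lower case because no base differs from the promoter of Defa37, and both genes encode defensins, antimicrobial peptides of the gut.
Defa36: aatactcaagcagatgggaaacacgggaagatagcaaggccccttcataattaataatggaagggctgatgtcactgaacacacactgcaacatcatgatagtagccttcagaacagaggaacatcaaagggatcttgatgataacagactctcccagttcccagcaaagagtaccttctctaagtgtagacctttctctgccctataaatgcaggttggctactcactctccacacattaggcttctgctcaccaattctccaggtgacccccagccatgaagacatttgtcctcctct
The Zfp979 promoter (chr4:147642459-147642758, minus strand) and that of Rex2 (chr4:147021600-147021899, plus strand) belong to a cluster of zinc finger genes, where a segment ended just short of the Zfp979 start, and capitals mark bases not matched in the other.
Zfp979: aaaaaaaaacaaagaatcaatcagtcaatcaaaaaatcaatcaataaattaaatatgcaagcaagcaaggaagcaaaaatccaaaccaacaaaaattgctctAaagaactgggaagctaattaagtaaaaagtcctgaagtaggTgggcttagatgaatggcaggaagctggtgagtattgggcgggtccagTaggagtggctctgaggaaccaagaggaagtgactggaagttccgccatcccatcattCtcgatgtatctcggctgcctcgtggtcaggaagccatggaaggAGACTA
Rex2: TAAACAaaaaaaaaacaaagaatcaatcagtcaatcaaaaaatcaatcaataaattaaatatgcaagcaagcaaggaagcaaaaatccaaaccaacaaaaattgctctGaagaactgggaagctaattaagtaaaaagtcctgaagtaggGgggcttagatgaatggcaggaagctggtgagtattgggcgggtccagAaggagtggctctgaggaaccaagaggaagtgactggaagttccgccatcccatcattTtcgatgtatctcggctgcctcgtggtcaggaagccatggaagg
The Smok2b promoter (chr17:13230013-13230312, plus strand) and that of Smok3a (chr5:138021026-138021325, plus strand) belong to sperm motility kinase genes, with capitals as in the pair before.
Smok2b: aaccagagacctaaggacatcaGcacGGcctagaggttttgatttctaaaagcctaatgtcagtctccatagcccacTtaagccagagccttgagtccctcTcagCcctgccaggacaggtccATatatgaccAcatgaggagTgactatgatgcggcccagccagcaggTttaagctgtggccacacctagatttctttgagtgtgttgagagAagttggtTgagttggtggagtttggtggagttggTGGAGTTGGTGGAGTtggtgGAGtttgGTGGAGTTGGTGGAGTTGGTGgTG
Smok3a: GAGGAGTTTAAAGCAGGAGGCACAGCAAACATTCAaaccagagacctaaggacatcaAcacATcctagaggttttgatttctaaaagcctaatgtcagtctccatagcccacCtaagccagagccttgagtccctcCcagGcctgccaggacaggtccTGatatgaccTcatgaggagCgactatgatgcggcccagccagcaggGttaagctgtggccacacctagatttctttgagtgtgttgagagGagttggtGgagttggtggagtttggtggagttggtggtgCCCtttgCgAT
The Prdm16 promoter holds 24 CG and 61.0% G and C, and 20.0% of the 32851 RefSeq promoters hold as many CG, against a median of 7. The Defa36 promoter holds 1 CG and matches Defa37 at all 300 bases, the Zfp979 promoter matches Rex2 at 290 bases with 10 not matched, and the Smok2b promoter matches Smok3a at 246 bases with 54 not matched. How reads that map equally well to such copies were placed is not stated in the sources used here, so values at these loci are uncertain.

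Susceptible-only segments were mostly short, with a small number of long ones that held much of the length. The 661 segments covered 988.0 kb, from 600 to 28200 bp each, with quartiles of 800, 1000 and 1000 bp. Of them 58 were 600 bp wide, 269 were 800 bp and 186 were 1000 bp, so 513 (77.6%) were at most 1000 bp wide. The other 148, from 1200 bp up and with a median of 2800 bp, held 552.0 kb or 55.9% of the covered length. Resilient-only segments covered 345.0 kb with a median of 800 bp, a maximum of 8000 bp and 79.6% at most 1000 bp. Control-only segments covered 326.8 kb with a median of 800 bp, a maximum of 5400 bp and 86.6% at most 1000 bp. Segments of all 3 lists had a median of 1400 bp, and 19.7% of them were at most 1000 bp. Among the classes held by 1 list, only the susceptible one had segments of 10 kb or more, of which there were 5, against 53 among the segments of all 3 lists.

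**Figure D1:**
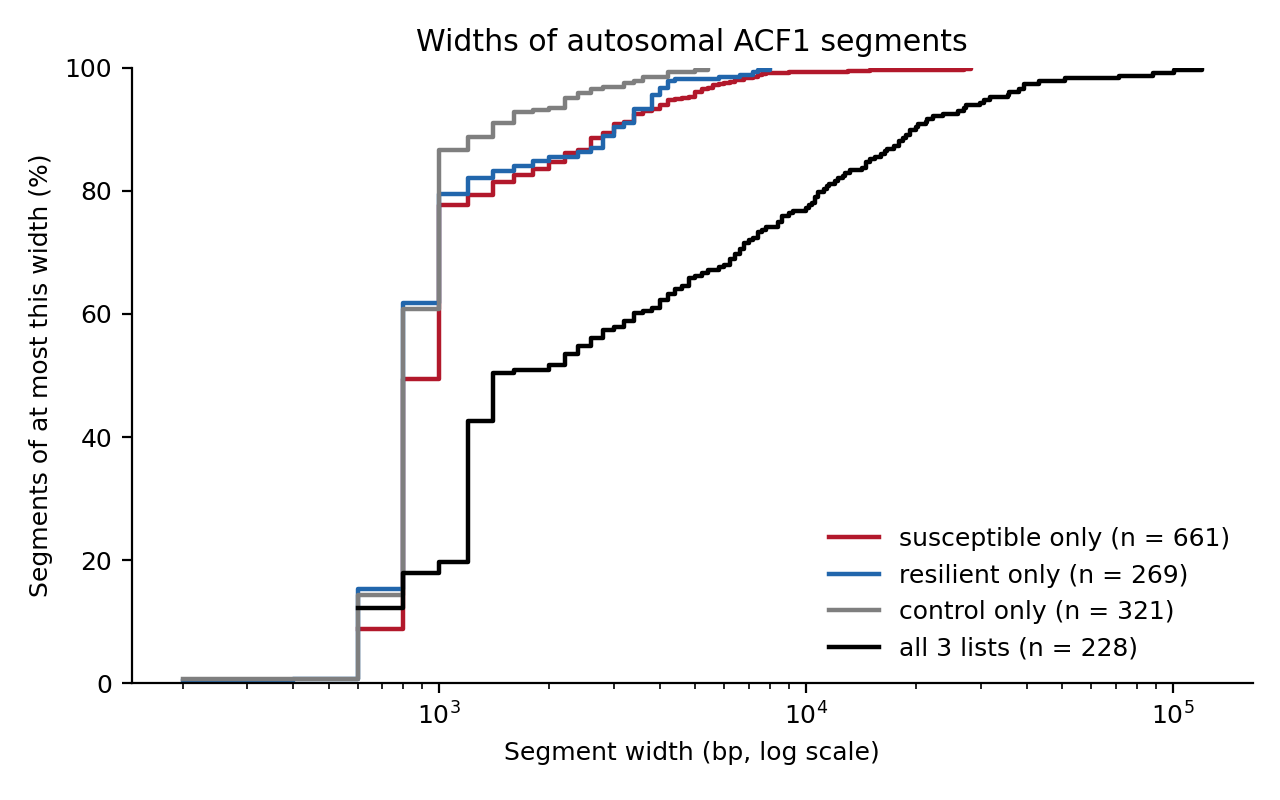
Width of autosomal ACF1 segments (x axis, bp, log scale) against the percentage of segments of at most that width (y axis), 1 line per class. The lines of the classes held by 1 list climb steeply to 1000 bp, where the susceptible-only line reaches 77.6%, while the line of all 3 lists stands at 19.7% there.

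Several of the longest susceptible-only segments lay over or beside members of tandem gene families. The widest, 28200 bp at chr17:13407201-13435400, covered both sperm motility kinase genes Smok2a and Smok2b whole. Farther along the same chromosome, 13000 bp at chr17:13629001-13642000 lay between Tcp10c, a testis gene of the t-complex, and 2700054A10Rik. The second widest, 27000 bp at chr7:39198801-39225800, lay between Pop4, a subunit of RNase P, and Gm5591. On chromosome 4, 18000 bp at chr4:145666601-145684600 covered parts of the zinc finger gene Gm13247 (now Zfp981) and of the non-coding 1700095A21Rik, and 15000 bp at chr4:3152601-3167600 lay 437.7 kb before Lyn, a tyrosine kinase of blood cells. The next 5 were 9000 bp at chr3:15349201-15358200 between Gm9733 and Sirpb1a, 7800 bp at chr14:44001001-44008800 between Mat1a and 1700001F09Rik, 7600 bp at chr13:12881201-12888800 over Prl2c4 (now Prl2c3), a placental prolactin-family hormone, and 7400 bp each at chr4:146662801-146670200 in Gm13152 (now Zfp982) and at chr7:46539201-46546600 between Gm21276 and A230077H06Rik. The other segments of at least 6000 bp were 8. Of 7200 bp there was chr4:146682201-146689400, again in Gm13152. At 6800 bp there were chr14:44036801-44043600, between 1700001F09Rik and Ptgdr, and chr7:12099401-12106200, between Zscan4b and Gm4224, where 9 of the 12 coding genes that RefSeq places between these on GRCm38.p6 are vomeronasal receptor genes of the Vmn1r family. At 6400 bp there were chr5:146329801-146336200 in Cyp3a41a and chr4:61415801-61422200 between Mup2 and Mup5, where all 16 coding genes between are major urinary protein genes, whose products carry pheromones. The segment of 6200 bp at chr17:25516201-25522400 lay between Tsr3 and Msln, with 15 coding genes between and none of the Mup, Vmn1r, Zfp, Pramel, Tas2r, Prl2c or Speer families. At 6000 bp there were chr14:43670401-43676400, between Mat1a and 1700001F09Rik, and chr7:15979401-15985400 in Obox2, an oocyte homeobox gene.

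Distances to the other lists were part of the rule, and none were counted over windows for comparison. The median distance to the nearest control or resilient segment was 713.4 kb, and 35 (5.30%) lay within 10 kb, 149 (22.5%) within 100 kb and 379 (57.3%) within 1 Mb of one. Taken list by list, the median was 1324.2 kb to the resilient and 1291.2 kb to the control list. Wide and short segments differed in this. Of the 148 wider than 1000 bp, 70 (47.3%) lay within 100 kb of another list's segment with a median of 150.0 kb, against 79 (15.4%) of the 513 short ones with a median of 885.6 kb. Close to the threshold, the widest chromosome 7 segment was a member with exactly 1000 bases to a control segment, followed by chr17:13567001-13571200 over Tcp10c with 1200 and chr5:79848201-79849800 with 1600 to a control segment. Just outside it were chr13:71566801-71567400, 600 bp wide and 800 bases from a resilient segment, and chr2:21228001-21228800, 200 bases from one.

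**Figure D2:**
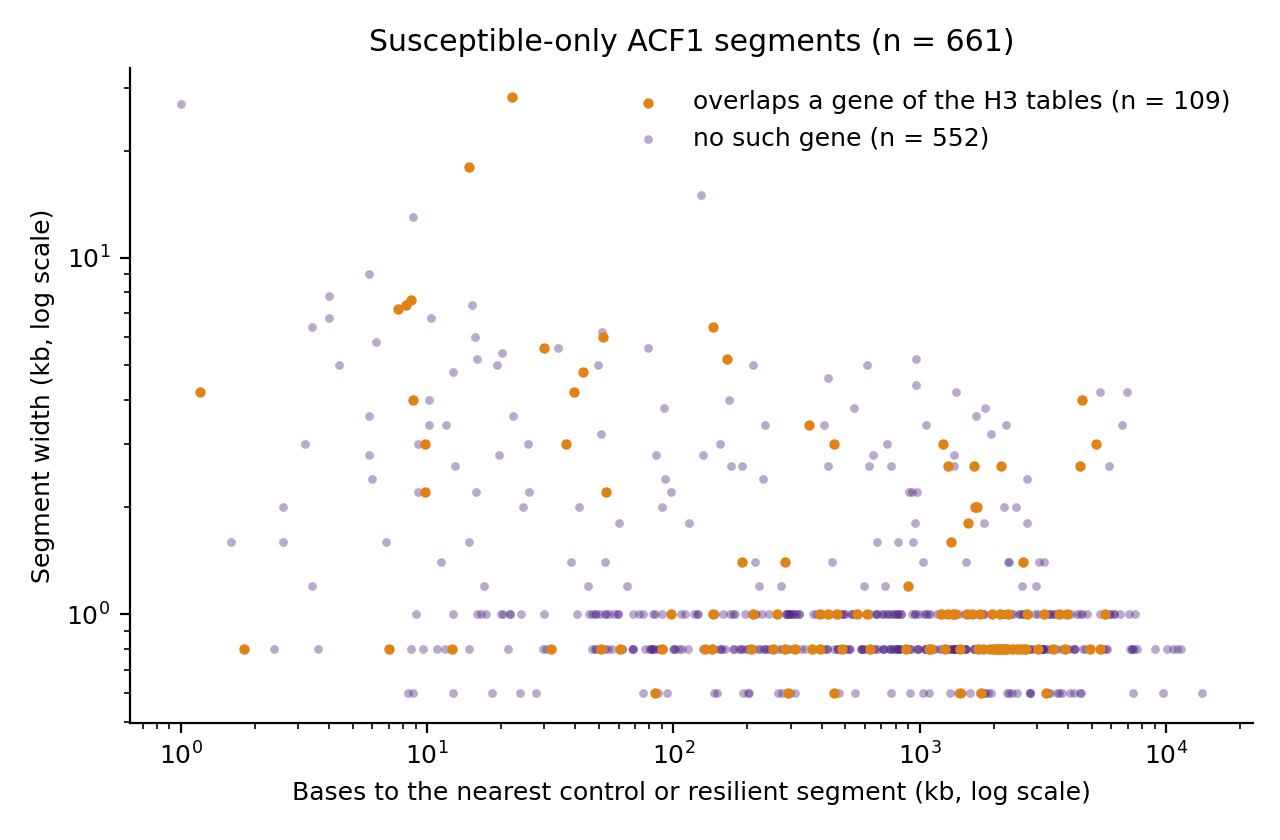
Each point is 1 of the 661 susceptible-only segments, placed by the bases to the nearest control or resilient segment (x axis, kb, log scale) and by its width (y axis, kb, log scale), with colour for overlap with a gene named in the H3 tables. The rows of points at 0.6, 0.8 and 1 kb are the 513 short segments, whose median distance was 885.6 kb, against 150.0 kb for the wide ones.

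Susceptible-only segments were found on every autosome, at 0.267 per Mb, against 0.109 per Mb for resilient-only and 0.130 per Mb for control-only segments. Chromosome 4 had the most, 67 segments or 0.431 per Mb, of which 22 were wide, followed by chromosome 7 with 0.393, chromosome 17 with 0.378 and chromosome 5 with 0.354 per Mb. Chromosome 18 had the fewest, 12 segments or 0.132 per Mb. On each of the 19 autosomes the susceptible-only density was above both other densities. The susceptible list alone held 990 of the 2208 autosomal segments of the 3 lists. A longer list can hold more segments of its own, and the densities were not corrected for this. The position of a segment at the very start of a mm9 chromosome sequence, before 4 Mb, was shared by 16 susceptible-only, 4 resilient-only, 3 control-only and 21 segments of all 3 lists.

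**Figure D3:**
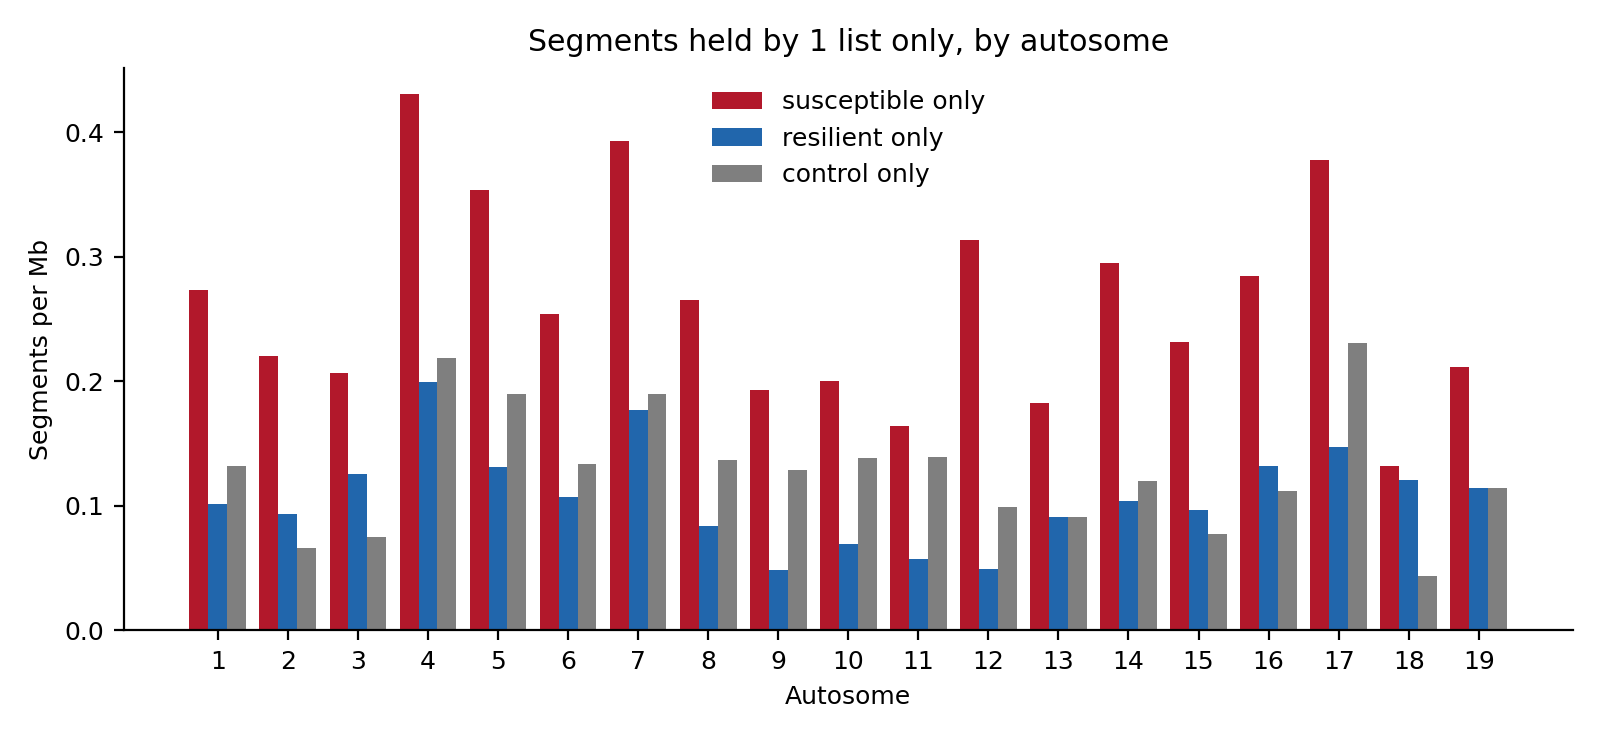
Segments per Mb (y axis) on each autosome (x axis) for segments held by the susceptible, resilient or control list only. The susceptible-only bar is the highest of the 3 on all 19 autosomes, from 0.132 on chromosome 18 to 0.431 on chromosome 4.

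Some of the segments lay in groups. When segments with at most 100 kb to the next were joined, 126 of 661 (19.1%) fell in 46 groups of at least 2, against 24 (8.92%) of the resilient-only and 15 (4.67%) of the control-only segments. The denser list gives closer neighbours by itself, and this was not corrected for. Wide segments were grouped more often, 60 of 148 (40.5%) against 12.9% of the short ones. The largest group had 12 segments, 7 of them wide, over chr5:95068001-95691800, where 9 resilient and 5 control segments lay in the same span. RefSeq places 22 coding genes between the flanking C87414 and Gm3286 on GRCm38.p6, of which 14 are Pramel genes, a family expressed in germ cells and early embryos. The next held 7 segments, 6 of them wide, at chr4:146934201-147142000 over the zinc finger genes 2610305D13Rik (now Zfp979), Gm13154 (now Zfp985) and Gm13157 (now Zfp984). The remaining groups of at least 3 numbered 10 and included chr17:13371401-13443400 with Smok2a and Smok2b (4 segments, 33.6 kb), chr7:39166001-39337200 (4 segments, 32.0 kb), chr13:12881201-13051000 at Prl2c4 (4 segments), chr8:22583201-22678400 at Gm21498, now Defa36 (4 segments), chr5:146235001-146409600 at Cyp3a41a, a liver enzyme of drug and steroid oxidation (4 segments), and chr17:13567001-13642000 at Tcp10c (3 segments).

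Gene bounds were taken from the H3 tables, which name 7787 autosomal genes, each because an H3 position lay in or near it, so genes without such a position are missing from every count of genes. Of the 661 segments, 109 (16.5%, exact 95% interval 13.7 to 19.5) overlapped such a gene, against 26.2% of all 1000-bp windows of the autosomes. The share was 14.6% (75 of 513) for the short and 23.0% (34 of 148) for the wide segments. It was 12.3% (8.60 to 16.8) for resilient-only, 20.2% (16.0 to 25.1) for control-only and 25.9% for segments of all 3 lists. The intervals cover counting error only, and they overlap between the susceptible-only and each of the other 2 classes held by 1 list. The susceptible-only share was below that of windows, as was the resilient-only share, both with intervals that end under 26.2%. The control-only interval also ended under it.

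The 109 segments touched 108 genes, 1.39% of the 7787. RefSeq gave 102 of these as protein coding, 3 as long non-coding and 2 as pseudogenes, and 1 (Raet1c) was not matched. Their median length was 80.8 kb against 35.2 kb for all autosomal genes of the tables, and 15 exceeded 500 kb. A longer gene meets a segment more easily by itself, and this was not corrected for. In 98 genes a segment lay wholly inside, with a median place 47.9% of the way from the start to the end, 12 in the first 10% of the gene and 7 in the last 10%. In 73 genes at most 1000 bp was covered. Of the 108 genes, 99 had no segment of another list, 7 also had a control segment, 6 a resilient one and 4 both. Most genes hold no segment. Over all 7787, 0.424% held a resilient-only segment, 0.822% a control-only one and 0.783% a susceptible segment of all 3 lists. The share of all genes with any control or resilient segment was not counted, so the 99 have no like share beside them. Whether a segment lay in an exon, intron or untranslated region was not analysed here, since no annotation of mm9 was used.

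A start named in the tables was covered by 6 of 661 segments, and 1 more lay within 1000 bp upstream of one, together 1.06%. The share was 1.12% for resilient-only, 1.25% for control-only and 7.02% for segments of all 3 lists. It was not counted over windows. The Smok2 segment covered the starts of Smok2a and Smok2b, the promoter of the last being printed above. The 18000 bp segment covered the start of the shorter record of Gm13247. At chr4:154010601-154011600, a segment of 1000 bp reached 382 bp into Prdm16 from its start, the CG-rich promoter above. At chr8:22675401-22678400, 3000 bp covered all 959 bp of Gm21498 (Defa36), the copy with the identical promoter. At chr7:50122401-50123200, 800 bp reached 204 bp into the pseudogene Gm2381. At chr1:90164601-90166800, 2200 bp lay in Hjurp, the chaperone that loads the centromeric histone CENP-A, over the start of 6430706D22Rik, a symbol now merged into Hjurp. The segment of 800 bp at chr1:173274401-173275200 lay in Nit1, an amidase gene, and just upstream of Pfdn2, a prefoldin subunit, which is read from the other strand.

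The genes with the most covered sequence were led by tandem families. Gm13247 was covered over 18000 bp, 1700095A21Rik over 17200 bp, Gm13152 over 14600 bp, 2610305D13Rik over 8600 bp and Gm13154 over 4200 bp, all in the distal chromosome 4 zinc finger clusters. Smok2a was covered over 6471 bp, Cyp3a41a over 6400 bp, Prl2c4 over 5718 bp, the cytochrome pseudogene Cyp2c53-ps over 5200 bp, Obox2 over 4492 bp and Tcp10c over 3089 bp. Others were genes of other kinds, whose copy number was not analysed here. Nlgn1, the postsynaptic adhesion protein neuroligin 1, was covered over 4000 bp, at 85.7% of the way along the gene. The transcription factor gene Ebf4 was covered over 3400 bp, and Runx1, a blood-cell transcription factor, Tusc3, a subunit of the N-glycosylation machinery, and Gm12185 over 3000 bp each. Coverage was 3228 bp in 4930486L24Rik, 2800 bp each in Gm21319 and in Fbln5, an elastic fibre protein, and 2600 bp each in Agtr1b, an angiotensin receptor, Espnl, Fsip1 and Zbtb7c. Agbl1 and Hjurp had 2200 bp each. Genes with 2 segments included 1700095A21Rik, Gm13152, 2610305D13Rik, Gm21319 and Fbln5.

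Gene lists set for the tissue were counted over the list genes that the tables name, against 1.39% of all genes, and no count was above 3 genes. Of neural adhesion genes, 3 of 47 (6.38%) held one: Nlgn1, its presynaptic partner Nrxn3 and Cdh23, the tip-link cadherin of hair cells. The same list had 2 genes with a resilient-only segment, Nlgn1 among them, and 1 with a control-only segment. Nlgn1 also had a segment of the control list. Of axon guidance genes, 1 of 33 (3.03%) did, the netrin receptor Dcc, which also had a resilient-only segment. Of ion channel genes, 1 of 86 (1.16%) did, Kcnj6, a G-protein-gated potassium channel. That list had 1 gene with a resilient-only and 2 with a control-only segment. Of chromatin remodellers, 1 of 20 (5.00%) did, Smarca4, the SWI/SNF ATPase BRG1, and 1 of 20 had a control-only segment, Baz2b. None of the 25 glutamate and GABA receptor genes of the list did, nor any marker in the tables of medium spiny neurons (5 genes), cortical excitatory neurons (5), interneurons (2), oligodendrocytes (1), astrocytes (2) or microglia (3), nor of 2 immediate early and stress genes. Of endothelial and blood markers, 1 of 5 did, Runx1, again at 3000 bp, and 1 of 5 had a control-only segment, Tek. Shares resting on 1 to 3 genes are above 1.39% in several of these lists and carry wide counting error. They were not corrected for gene length, and Nrxn3 (1540.4 kb), Dcc (1097.4 kb) and Nlgn1 (721.5 kb) are long.

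Segments also lay in tandem gene families. Of zinc finger genes, 6 of 114 (5.26%) held a susceptible-only segment, namely 2610305D13Rik, Gm13152, Gm13154, Gm13157, Gm13247 and Zfp438, against 2 with a resilient-only, 1 with a control-only and 4 with a segment of all 3 lists. Of the other tandem families, 11 of 212 (5.19%) did, against 2 with a resilient-only segment, none with a control-only segment and 1 with a segment of all 3 lists. These 11 were Smok2a, Smok2b and Tcp10c, expressed in testis; the cytochrome genes Cyp3a41a and Cyp2c53-ps; the liver or conjugation genes Serpina1b, Sult2a4 and Ugt3a1; Gm21498; and Skint6 and Skint11, relatives of a selector of skin T cells. Over all genes, the classes touched 1.39% (susceptible only), 0.424% (resilient only), 0.822% (control only) and 0.783% (all 3 lists). Olfactory and vomeronasal receptors had 1 of 275 (0.364%), Vmn2r111, which also had a control-only segment. Neighbouring copies share sequence and some share a segment, so these counts are not independent, and the families were listed with earlier results of these data known.

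H3 positions were taken from the authors' deposited tables, which for each pair of groups list single positions of changed occupancy, marked Up or Down, and nucleosome shifts in bp. They give no size of the occupancy change, p-value or depth. Up was taken as higher in the group named first, which the files do not state, and the opposite reading turns every direction round. The 3 tables share their groups pairwise, so they are not independent of each other. Of the 661 segments, 122 (18.5%) had a position of any of the authors' deposited tables within 1000 bp, 117 (17.7%) an occupancy position and 23 (3.48%) a shift, while 539 had none.

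In the authors' deposited table that sets susceptible against control mice, 56 segments (8.47%) had an occupancy position within 1000 bp, against 4.91% of all 1000-bp windows. All 31 of the positions near chromosome 1 segments were Down in this table. So were most positions of chromosome 1 as a whole: 7217 of 49282 autosomal positions were Up, and 6630 of 16491 without chromosome 1. Without that chromosome 34 of 607 segments (5.60%) had a position, against 2.13% of windows. For the short segments, which compare best with windows, the share was 5.85% (30 of 513, interval 3.98 to 8.24). Without chromosome 1 it was 2.99% (14 of 468, interval 1.64 to 4.97), against 2.13% of windows, which the interval includes. Of the wide segments, 26 of 148 (17.6%) had a position, over a larger span each. Short resilient-only segments had one in 0.935% and short control-only segments in 6.47%. Without chromosome 1 these were 0 of 199 and 3.53% (9 of 255), beside the 2.99% of short susceptible-only segments.

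In the authors' deposited table that sets resilient against control mice, 51 segments (7.72%) had an occupancy position, against 2.07% of windows. Short segments had one in 5.46% (28 of 513, interval 3.66 to 7.79), whose lower bound lies above the window share, and wide ones in 15.5% (23 of 148). Of the 661, 48 segments (7.26%) had one in the authors' deposited table that sets resilient against susceptible mice, against 1.93% of windows, and without chromosome 1 44 of 607 (7.25%), against 1.92%. Short segments had one in 4.29% (22 of 513, interval 2.71 to 6.42), again above the window share at the lower bound, and wide ones in 17.6% (26 of 148). Short resilient-only and control-only segments had positions in 3.27% and 4.32% in the first of these tables and in 3.27% and 3.60% in the second, within the susceptible-only intervals in all but 1 case, the 3.27% of the first table.

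**Figure D4:**
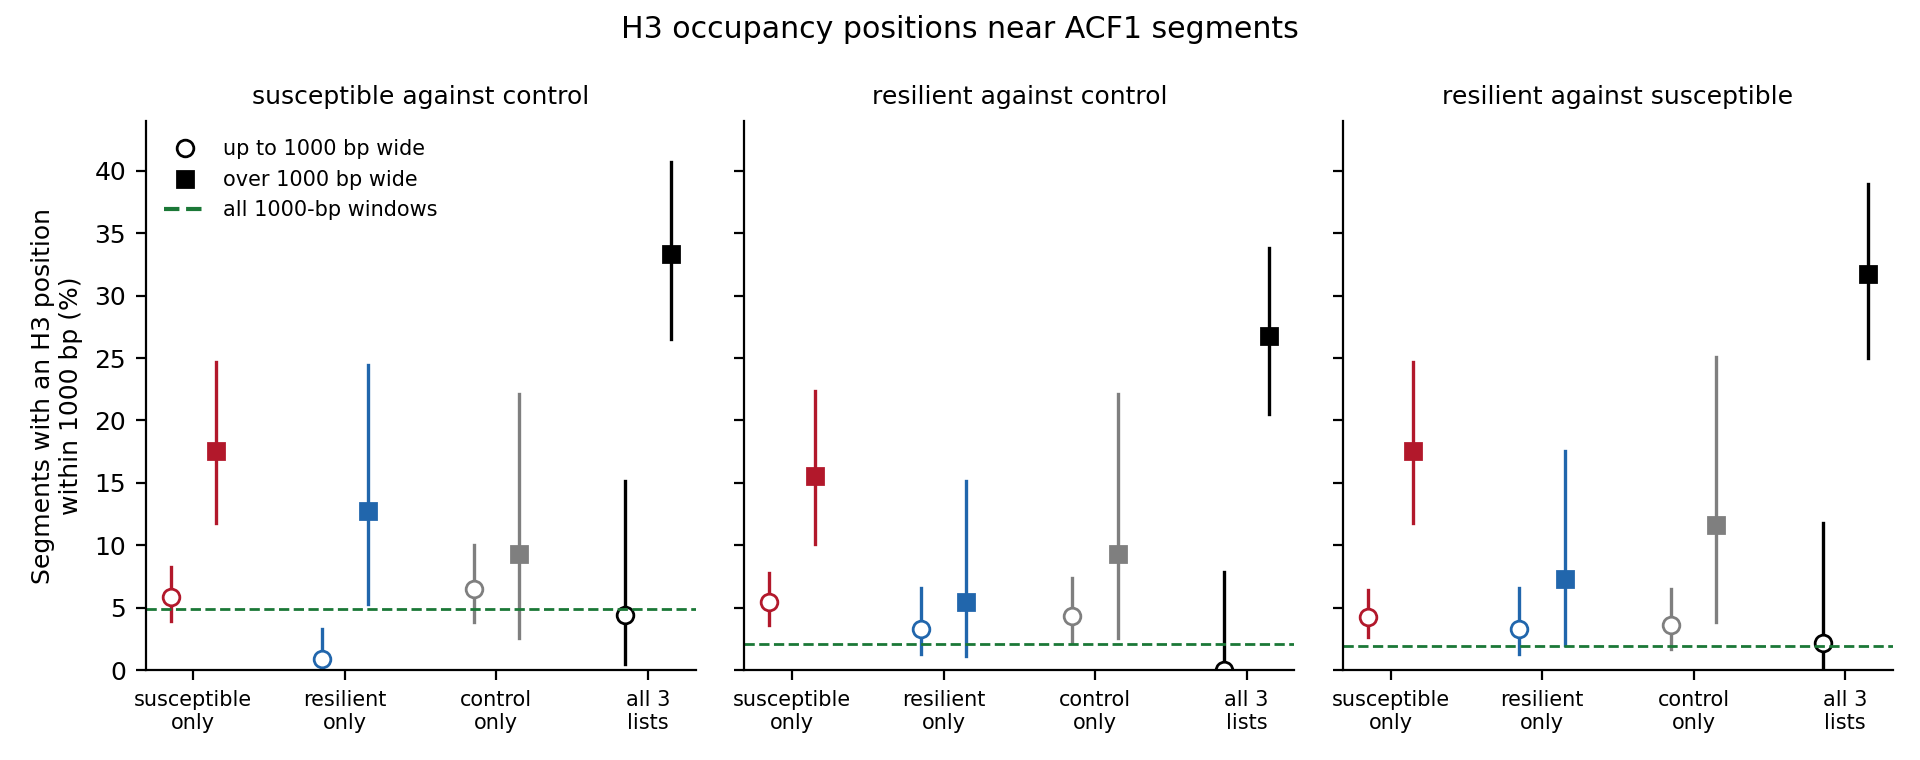
Percentage of segments with an H3 occupancy position within 1000 bp (y axis) by class (x axis) in each of the authors' deposited occupancy tables, for segments up to 1000 bp (open circles) and wider (squares), with exact 95% intervals of counting error as bars and the share of all 1000-bp windows as a dashed line. Wide susceptible-only segments stand at 15.5% to 17.6% in the 3 panels, short ones at 4.29% to 5.85%.

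Down positions outnumbered Up positions near susceptible-only segments in each of the authors' deposited occupancy tables, as they do in each whole table. The Up share near the segments was above that of the whole table for susceptible against control and below it for the other 2 tables, with the whole table's share outside the interval for susceptible against control with chromosome 1 and for resilient against susceptible mice. In susceptible against control mice, 18 of 71 positions near susceptible-only segments were Up (25.4%, interval 15.8 to 37.1), against 14.6% of the whole table. Without chromosome 1, 18 of 40 were Up (45.0%, 29.3 to 61.5), against 40.2% of the table. In resilient against control mice, 21 of 62 were Up (33.9%, 22.3 to 47.0), against 38.3%. In resilient against susceptible mice, 20 of 63 were Up (31.7%, 20.6 to 44.7), against 49.0%, so Down positions, taken as higher H3 in susceptible mice, numbered 43. In the same table, 9 of 15 were Up near resilient-only segments (60.0%, 32.3 to 83.7), 7 of 16 near control-only segments and 26 of 156 (16.7%) near segments of all 3 lists. Positions of 1 locus are not independent, so the intervals are too narrow.

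The share of Up positions was also counted inside and beside the segments, with no test of the difference. Inside, 15 of 40 positions were Up in the authors' deposited table for susceptible against control mice, and in the 1000 bp on each side 3 of 31. Off chromosome 1, 15 of 28 were Up inside (53.6%, interval 33.9 to 72.5) and 3 of 12 beside (interval 5.49 to 57.2), with intervals that overlap. Up positions in the authors' deposited table for resilient against control mice numbered 16 of 40 inside and 5 of 22 beside. In the authors' deposited table of resilient against susceptible mice the order was the other way, 9 of 38 Up inside and 11 of 25 beside. By the classes in the authors' deposited tables, positions that were intergenic outside gene deserts made up 54.9% (39 of 71) in susceptible against control, 64.5% (40 of 62) in resilient against control and 60.3% (38 of 63) in resilient against susceptible mice, against 44.2%, 48.0% and 48.3% of the whole tables. Gene body positions made up 21.1%, 27.4% and 22.2% near the segments, against 30.7%, 29.6% and 28.5% of the whole tables.

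**Figure D5:**
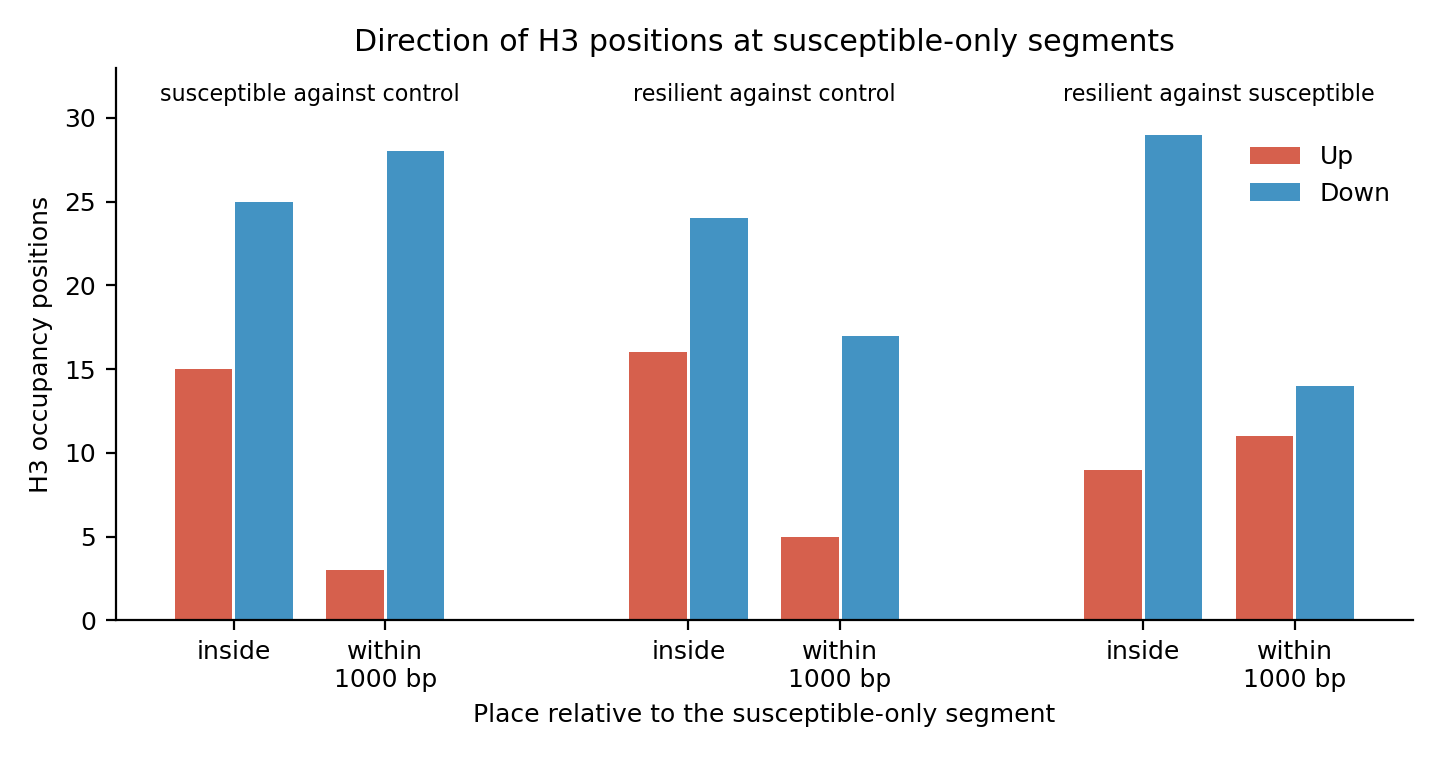
Number of H3 occupancy positions marked Up or Down (y axis) inside susceptible-only segments and within 1000 bp beside them (x axis), for each of the authors' deposited occupancy tables. Inside the segments 15 of 40, 16 of 40 and 9 of 38 positions were Up, and beside them 3 of 31, 5 of 22 and 11 of 25.

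Few segments had more than 1 position. Of the 117 with an occupancy position in the authors' deposited tables, 95 had at most 1 in each table, 19 had 2 in at least 1 table and 3 had more. The Smok2 segment had the most, with 3 positions (2 Up) in susceptible against control, 5 (2 Up) in resilient against control and 9 (3 Up) in resilient against susceptible mice in the authors' deposited tables. One of its Up positions, 13416592, lay 2538.5 bp after the start of Smok2a and stood in both resilient tables of the authors' deposited set. The Nlgn1 segment had 4 positions in the authors' deposited table for resilient against control mice, with both inside it Up (25433352 and 25433662) and both beside it Down. In the authors' deposited table of resilient against susceptible mice it had 1, a Down position at 25434442, and in that of susceptible against control a shift of 60 bp at 25434382. The 1400 bp segment in Marco, a scavenger receptor of macrophages, had 4 Down positions and a shift of 70 bp in the authors' deposited tables of susceptible against control mice. It lies on chromosome 1, where most positions of that table were Down, and all 31 near susceptible-only segments were.

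Other segments with positions were those without a gene and those of tandem families. In the chromosome 4 segment at 3152601 to 3167600, position 3165312 was Up in the table of susceptible and control mice and Down in that of resilient and susceptible mice (the authors' deposited tables), both taken as higher H3 in susceptible mice. These 2 comparisons share the susceptible library. The 27000 bp segment on chromosome 7 had 2 positions (1 Up) in the authors' deposited table of resilient and control mice, and in that of resilient and susceptible mice a single Down position. Gm13247 had 2 positions (1 Up) in susceptible against control, 1 Down in resilient against control and 1 Up in resilient against susceptible mice in the authors' deposited tables. At the Defa36 start, the authors' deposited table for susceptible against control mice had 1 Down position 25.5 bp upstream. Tcp10c had 2 Down positions in the authors' deposited table for resilient against control mice.

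Shifts lay mostly at wide segments. In susceptible against control mice, 12 segments (1.82%, interval 0.941 to 3.15) had 13 shifts of the authors' deposited table within 1000 bp, 10 positive and 3 negative, against 0.439% of all 1000-bp windows. Without chromosome 1 it was 7 of 607 segments (1.15%), against 0.0714% of windows. In resilient against control mice, 7 segments (1.06%) had 8 shifts of the authors' deposited table, 4 positive and 4 negative, against 0.0700% of windows. In resilient against susceptible mice, 7 segments (1.06%) had 7 shifts of the authors' deposited table, 3 positive and 4 negative, against 0.0631% of windows. Wide segments, each with a larger span than a window, made up 8 of the 12, 6 of the 7 and 7 of the 7. Short segments with a shift were 4, 1 and 0 of 513, or 0.780% (interval 0.213 to 1.98), 0.195% (0.00494 to 1.08) and 0 (up to 0.717%), intervals that include the window shares. All were 60 to 80 bp in size. The meaning of the sign is not stated in the files. Gm13247 had a shift of -70 bp in susceptible against control and of 80 bp in each of the other 2 comparisons, again from the authors' deposited tables, and the Smok2 segment had shifts of 60 and 80 bp in susceptible against control mice. Of the 13 shifts of that comparison in the authors' deposited table, 5 were on chromosome 1.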

How the data were processed

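ACF1 segments came from 3 of the 15 samples and H3 tables from 3 others; samples of SNF2H and of input were not analysed here. CASAVA 1.8.2 and mm9 appear in the submitters' processing notes, and no source used here names the aligner or the programs behind segments and tables. The authors deposited, for each ACF1 sample, a state per segment with no score, and for H3, a direction word per position or a signed shift in bp (handled as a score). Libraries had 19 PCR cycles for ACF1 and 15 for H3, with reads of 100 bp, per the labels' protocols. Replicates are named in the labels, but each deposited file held 1 result, so no replicate spread or pairing could be used and depth is unknown. The pair of groups of an H3 table was read from the name under which it was deposited.

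A susceptible segment was a member when at least 1000 bases lay between it and the nearest control and resilient segment, and an H3 position was near when at most 1000 bases from the segment. Counts, shares and exact (Clopper-Pearson) 95% intervals were computed with Python 3.11.15, numpy 2.4.6, pandas 2.3.3 and scipy 1.17.1, figures with matplotlib 3.10.9, and promoters were compared with BLAST 2.17.0 and Biopython 1.88. Backgrounds were counted over all 1000-bp windows, starting every 200 bp. Distances and overlaps were tested on simulated segments. RefSeq GRCm38.p6 gave current symbols (7774 of 7787 autosomal genes matched) and neighbours, never coordinates of segments. Coordinates are 1-based on mm9 unless a promoter is named.

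Members, gene lists and comparisons were chosen with earlier results of these data known. Named genes were those with the most covered bases, with 2 or more segments, with a segment at the start, on a gene list, or with the most H3 positions. One gene that met this rule is not reported here. Alternatives were the exclusion distance, the H3 window, segment width, gene bounds, the lists used to exclude, sex chromosomes and leaving out chromosome 1.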

Additional observations from a re-analysis of the deposited data

How the results depend on the processing

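The number of susceptible-only segments ranged from 626 (10000 bp to the other lists) to 715 (excluded by the control list only), and the covered length from 839.6 to 1242.8 kb, with a median width of 800 or 1000 bp. With gene bounds extended by 5000 bp, 19.7% of the segments (130 of 661) overlapped a gene, and of segments of at least 1200 bp 23.0% (34 of 148) did, the second split chosen after seeing the data. In the order susceptible against control, resilient against control and resilient against susceptible, segments with an H3 occupancy position numbered 35, 32 and 26 with positions inside only, 131, 110 and 84 within 5000 bp, 26, 23 and 26 for widths of at least 1200 bp, and 30, 28 and 22 for widths of at most 1000 bp, both width splits being chosen after seeing the data. Without chromosome 1 the first of these was 34. Segments with a shift numbered 25, 16 and 12 within 5000 bp, 7 without chromosome 1 in susceptible against control, and 4 under 10000 bp of width in resilient against susceptible mice. The Up share in susceptible against control mice was 37.5% inside segments and 45.0% without chromosome 1. The other 72 values computed under these alternatives stayed within 1.5 times the count or within the interval. Counts change by construction with the span searched and the number of segments; the cause of the changed shares and of the chromosome 1 values was not tested.

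No paired analysis was possible because each group had 1 deposited list and each pair of groups 1 table, so no replicate was left out. Depth is unknown, so neither the calling limit of the segments nor that of the H3 positions can be set beside these counts. Genes are limited to those the H3 tables name, copies of tandem genes cannot be told apart by the files, and the bound state and the sense of Up were taken as described.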

Other observations

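Several further genes with a susceptible-only segment were picked after their values were seen, and each held 1 segment unless stated. Genes of synapses and neuronal secretion were Ptprd, a presynaptic adhesion phosphatase (800 bp), Grip1, a scaffold of AMPA receptors (800 bp), Sdk2, an adhesion protein of retinal synapses (1000 bp), Cadps2, which primes dense-core vesicles (800 bp), Rab3b, a vesicle GTPase (600 bp), and Fam196b, now Insyn2b, of inhibitory synapses (800 bp). Grip1 also had a control segment, and Dock2, a Rac activator of lymphocytes, a control and a resilient one. The Fam196b segment also lay in the overlapping Dock2, so the segment cannot be given to either gene. It held position 34234232, marked Up in the authors' deposited tables of resilient against control and of resilient against susceptible mice, which share the resilient library.

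Genes of sperm and egg outside the tandem families were Zan, a sperm protein that binds the egg coat (800 bp), Plcz1, the sperm phospholipase of egg activation (800 bp), Astl, an egg protease (800 bp), Dmrt1, a transcription factor of the testis (1000 bp), and Fsip1 (2600 bp). Genes of myeloid cells were Marco (1400 bp), Ctsg, a neutrophil protease (600 bp), and Clec4a3, a lectin receptor (800 bp). No test was made of these groupings, no share over all genes of each kind was counted, and gene length was not corrected for. The longest of the synapse and secretion genes were Ptprd (2270.7 kb) and Cadps2 (576.6 kb). None of the 3 microglia markers counted above held a susceptible-only segment.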
